A study of Mus with 12 samples.

Results

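Proteasome genes were followed in bulk RNA-seq of mouse CD8 T cells. Members were all rows of the deposited table with a proteasome gene symbol (Psma to Psmg and a number, without -ps copies) that reached 1 FPKM (sequenced fragments relative to transcript length and to how many fragments a library had) in at least 2 libraries. The name pattern matched 50 rows, and 48 of them passed, among 13396 of 55487 genes that passed the same filter. The catalytic subunits of the immunoproteasome, Psmb8, Psmb9 and Psmb10, were described apart from the other 45 members. Naive CD8 T cells had been isolated from spleens (C57BL/6 background) and cultured for 20 h on plate-bound anti-CD3 with anti-CD28 and IL-2 in medium with charcoal-stripped serum, and these conditions were shared by all groups. Donors lacked RARα, a receptor for retinoic acid, in their T cells (RARα-KO, from Cre recombination of floxed Rara under the distal Lck promoter), lacked the transcription factor BATF (BATF-KO), or were wild-type (WT). In each genotype, 1 group was given 15 nM of all-trans retinoic acid (RA) and 1 group was not, which gave 6 groups of 2 libraries. The RARα-KO line still makes a Rara transcript, the study's controls were C57BL/6 or Cre-bearing mice, and how the BATF-KO line was made is not given in the sources used here. RA was read from the sample titles, since the label for treatment does not differ between groups. The sources do not say if the libraries of a group are separate animals or cultures, so p-values measure only the spread between these samples.

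The proteasome is the main protease for ubiquitin-tagged proteins. Its barrel-shaped 20S core is built of outer alpha rings and inner beta rings, and the catalytic sites lie inside, on the beta subunits Psmb5, Psmb6 and Psmb7. In lymphocytes and in cells that sense interferon-gamma, newly made cores take up Psmb8, Psmb9 and Psmb10 in their place, which alters the peptides offered to MHC class I. The 19S cap unfolds and feeds in substrates, while the PA28 and PA200 activators open the core without ubiquitin.

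Batf checked the BATF-KO label, with 4.05 to 4.90 FPKM in the 4 BATF-KO libraries, against 19.1 to 34.1 FPKM in the other 8 libraries. Rara was listed at 11.1 to 17.9 FPKM in every library, so its level checks nothing about the deletion. Read totals were not used here and the absolute depth is unknown, while the smallest steps of low values put the relative depth at 0.940 to 1.33 (WT replicate 1 set to 1). RARα-KO libraries differed from WT in markers of other cells. All 13 B cell markers were called higher (adjusted p under 0.05 in limma) both without and with RA, and their summed level was 510.2 to 658 FPKM in the 4 RARα-KO libraries, against 59.5 to 130.3 FPKM in the 4 WT libraries. The summed level of 12 CD8 T cell markers was 3200 to 4003 FPKM in RARα-KO, against 4054 to 5011 FPKM in WT libraries. All 12 had lower means in RARα-KO without RA and 11 with RA, and 1 was called lower in each RA state. All 10 NK and innate-like markers also had higher means in RARα-KO, with 4 called without RA and 5 with RA, and their summed level was 124 to 158 FPKM in RARα-KO, against 41.4 to 65.3 FPKM in WT libraries. Of 9 myeloid markers, 8 were tested, with 7 higher and 1 lower in RARα-KO without RA and 8 higher with RA. Called higher were 3 without RA and 5 with RA. The summed levels of the 9 were 78.1 to 148 FPKM in RARα-KO and 26.1 to 46.6 FPKM in WT libraries. In BATF-KO libraries the summed levels were 101 to 147 FPKM (B cell), 51.1 to 111 FPKM (NK and innate-like) and 23.9 to 84.9 FPKM (myeloid). For the CD8 T cell markers they were 4244 to 5094 FPKM. No listed marker was called between BATF-KO and WT in either RA state (limma). No listed marker was at 0 in all libraries of a genotype. The part of these markers in the RARα-KO and BATF-KO results was not tested. In bulk samples fewer cells of a type and less RNA per cell cannot be told apart.

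Transcripts of the proteasome were abundant in every group. The members had a median of 114.6 FPKM over the 12 libraries, against 13.6 FPKM for all tested genes, and 46 of the 48 lay above that value. Psmb8, the immunoproteasome counterpart of Psmb5, was highest with a mean of 747 FPKM, above 98.9% of tested genes. Psme1 (558 FPKM) came next, and Psme2, the other PA28 activator subunit, was close to Psma7. Psmb8 exceeded Psme1, and Psme1 exceeded Psme2, in each of the 12 libraries, whereas Psme2 exceeded Psma7 in 4 of 12, and neighbours further down, such as Psma4 and Psmb2 or Psmb6 and Psmc1, changed places in 6 of 12 libraries.

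**Figure D1:**
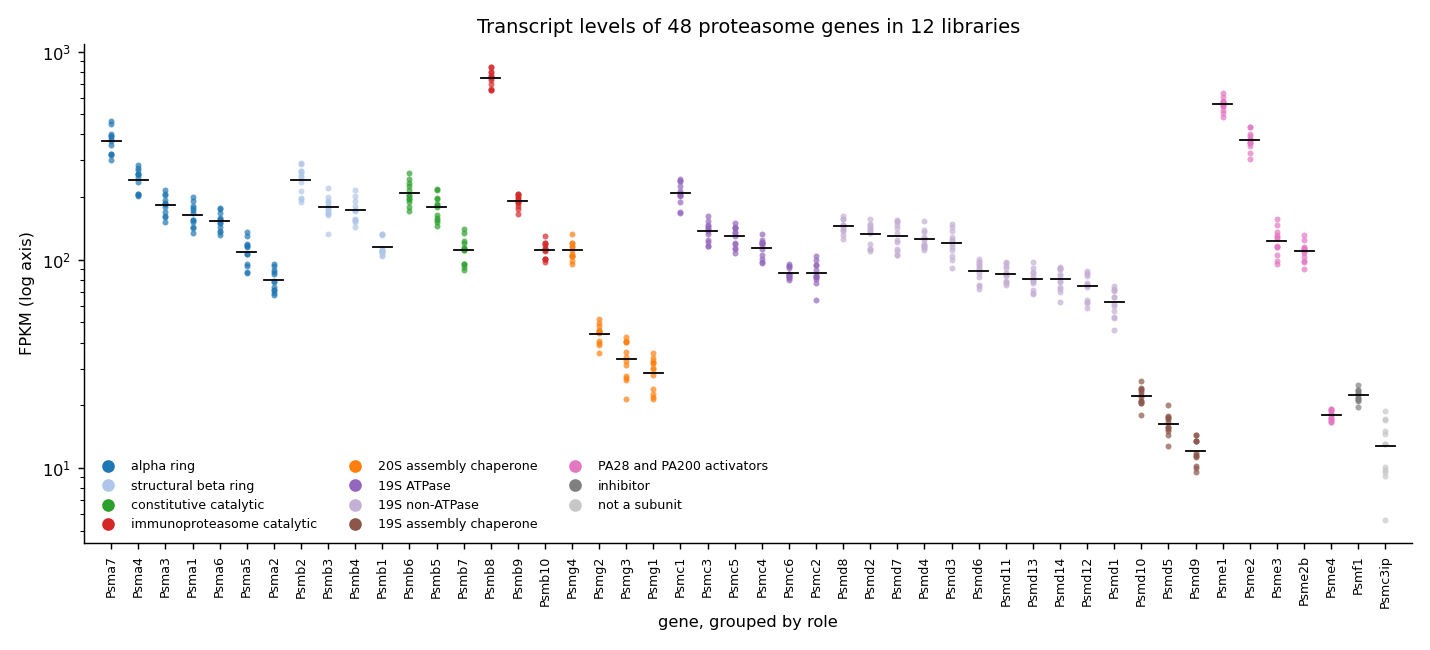
FPKM (log axis) of the 48 members, grouped by role, with 1 point for each of the 12 libraries and a bar at the mean. Psmb8 and Psme1 stand highest, and the 19S assembly chaperones, Psme4, Psmf1 and Psmc3ip lie below 30 FPKM in every library.

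The structural classes lay close together. The 7 alpha ring genes had means between 80.1 FPKM (Psma2) and 372 FPKM (Psma7), and the 4 structural beta genes lay between 114.9 FPKM (Psmb1) and 242 FPKM (Psmb2). The 6 ATPases of the 19S base, which unfold substrates, ranged between 86.5 FPKM (Psmc2) and 209 FPKM (Psmc1). The 11 other 19S subunits, among them the deubiquitinase Psmd14 and the ubiquitin receptor Psmd4, lay between 62.5 FPKM (Psmd1) and 144.7 FPKM (Psmd8). The genes that help to build the particle were lower, except for Psmg4, which lay within the range of the structural classes. The 20S assembly chaperones had means of 28.7 FPKM (Psmg1) to 110.8 FPKM (Psmg4), and the 19S assembly chaperones had 12.1 FPKM (Psmd9) to 22.2 FPKM (Psmd10). The activators were the most uneven class, since Psme4, which encodes PA200, had 17.9 FPKM, 31.2-fold below Psme1. Psmf1, which encodes the proteasome inhibitor PI31, had 22.3 FPKM. Psmc3ip carries a matching symbol but encodes a meiotic recombination factor and no subunit, and at 5.62 to 18.8 FPKM it was the most variable member.

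Summed over all members, the libraries spanned 6076 FPKM (WT replicate 1) to 7836 FPKM (BATF-KO+RA replicate 2), a 1.29-fold range. The 14 alpha, structural beta and constitutive catalytic genes spanned a 1.45-fold range with the same libraries at its ends, and the 3 immunoproteasome genes a 1.27-fold range between BATF-KO replicate 1 and RARα-KO+RA replicate 2.

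The catalytic subunits were examined in each library. Psmb8 (ENSMUSG00000024338, chromosome 17, 34198195 to 34201454 in GRCm38) had 801 and 846 FPKM in RARα-KO+RA, 767 and 733 in RARα-KO, 747 and 845 in BATF-KO+RA, 655 and 697 in BATF-KO, 765 and 800.1 in WT+RA, and 650.4 and 662 in WT libraries. In each genotype both libraries with RA lay above both without it. Its neighbour Psmb9 (ENSMUSG00000096727, chromosome 17, 34182030 to 34187330), which takes the place of Psmb6, had 208 and 201 FPKM in RARα-KO+RA, 207 and 191 in RARα-KO, 181 and 189 in BATF-KO+RA, 165 and 176 in BATF-KO, 199 and 194 in WT+RA, and 204 and 188 in WT libraries. The BATF-KO libraries were the lower ones for this gene, with and without RA. Psmb10 (ENSMUSG00000031897, chromosome 8, 105935728 to 105938392), which takes the place of Psmb7, had 113 and 119.97 FPKM in RARα-KO+RA, 112 and 100.5 in RARα-KO, 109.8 and 119.99 in BATF-KO+RA, 97.1 and 101 in BATF-KO, 130.6 and 113 in WT+RA, and 117 and 101 in WT libraries. RA and untreated libraries did not overlap in the knockouts and did in WT.

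In both knockouts the constitutive catalytic genes differed more between replicates than the immunoproteasome genes did. In WT cells this did not hold for every gene. On the log2 scale, replicate 2 minus replicate 1 was -0.21 for Psmb10 and 0.08 for Psmb5 in WT. In WT+RA it was -0.20 for Psmb10 and 0.07 for Psmb6. Psmb5 (chromosome 14, 54614120 to 54617995) had 153 and 197 FPKM in RARα-KO+RA, 145 and 186 in RARα-KO, 183 and 219.5 in BATF-KO+RA, 159.5 and 197 in BATF-KO, 216 and 180.04 in WT+RA, and 155 and 164 in WT libraries. Psmb6 (chromosome 11, 70525324 to 70527858) had 196 and 234 FPKM in RARα-KO+RA, 179.7 and 225 in RARα-KO, 203 and 261 in BATF-KO+RA, 189 and 244 in BATF-KO, 205 and 216 in WT+RA, and 172 and 196 in WT libraries. In both knockouts, replicate 2 exceeded replicate 1 for these genes whether or not RA was added. Psmb7 (chromosome 2, 38588046 to 38643952) had 92.0 and 112 FPKM in RARα-KO+RA, 88.8 and 120.5 in RARα-KO, 112 and 134 in BATF-KO+RA, 95.65 and 123 in BATF-KO, 140.1 and 113 in WT+RA, and 95.8 and 114 in WT libraries. Only WT+RA had its higher Psmb7 and Psmb5 value in replicate 1.

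The PA28 genes, whose products cap the core as a ring and are also driven by interferon-gamma, were read in the same way. Psme1 (chromosome 14, 55578494 to 55581527) had 562 and 602 FPKM in RARα-KO+RA, 570.5 and 579 in RARα-KO, 508 and 547 in BATF-KO+RA, 487 and 524 in BATF-KO, 632 and 575 in WT+RA, and 561 and 546 in WT libraries. Psme2 (chromosome 14, 55587440 to 55591101) had 434 and 381 FPKM in RARα-KO+RA, 402 and 395 in RARα-KO, 326 and 374 in BATF-KO+RA, 305 and 362 in BATF-KO, 432 and 365 in WT+RA, and 369 and 353 in WT libraries. For Psme1 the BATF-KO libraries were the lower ones in each RA state, whereas for Psme2 they overlapped with WT. Psme3, which forms a separate nuclear PA28 ring, had 106 and 147 FPKM in RARα-KO+RA, 98.8 and 157 in RARα-KO, 127 and 129 in BATF-KO+RA, 115 and 117 in BATF-KO, 115 and 136 in WT+RA, and 95.4 and 132 in WT libraries. Its replicates lay far apart in RARα-KO and WT and close together in BATF-KO. Psmf1 had 20.9 and 22.7 FPKM in RARα-KO+RA, 22.01 and 23.1 in RARα-KO, 21.4 and 23.6 in BATF-KO+RA, 21.7 and 22.6 in BATF-KO, 24.9 and 23.8 in WT+RA, and 21.3 and 19.6 in WT libraries. The highest values of Psmf1 were both in WT+RA, and the lowest was in WT.

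**Figure D2:**
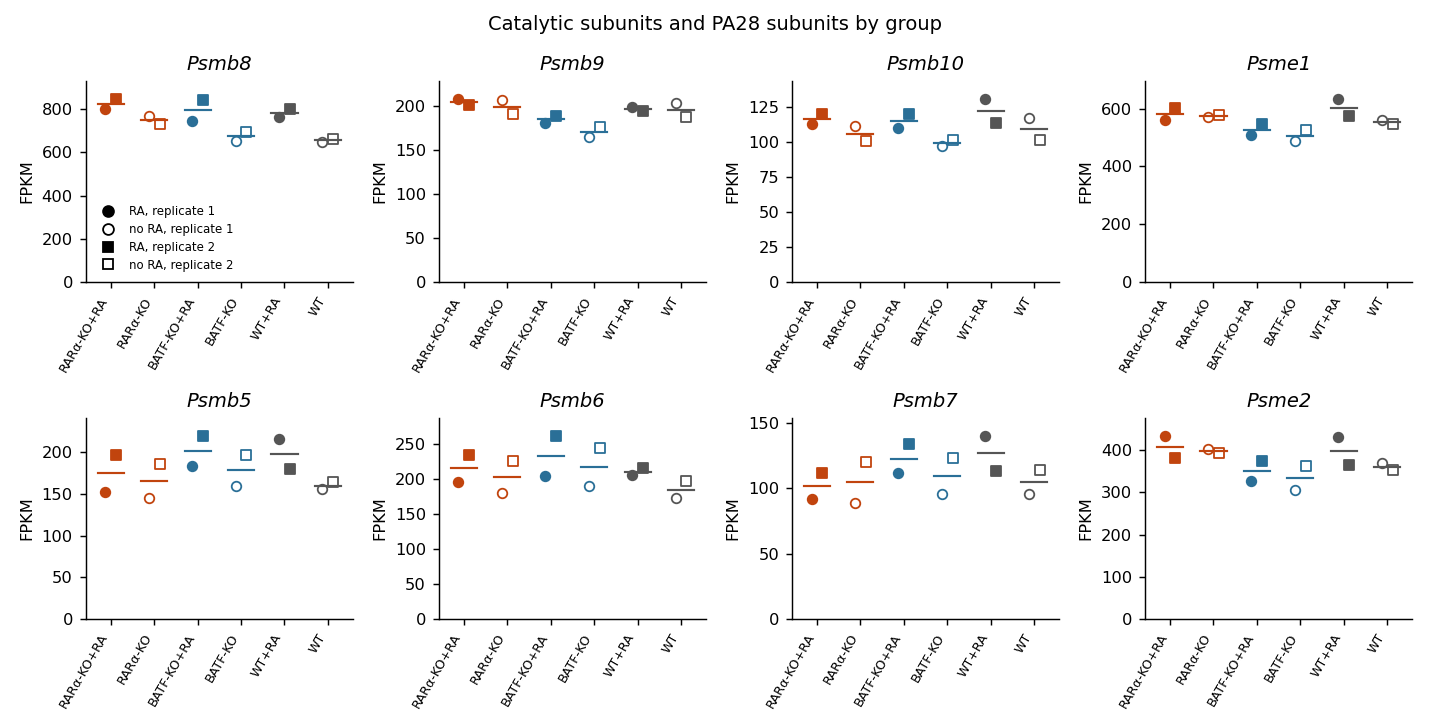
FPKM of the immunoproteasome genes Psmb8, Psmb9 and Psmb10, their constitutive counterparts Psmb5, Psmb6 and Psmb7, and the PA28 genes Psme1 and Psme2, by group. Circles are replicate 1, squares replicate 2, filled symbols RA, open symbols no RA, and bars are means of 2 libraries. Psmb8 with RA lies above Psmb8 without RA in each genotype, and for Psmb5, Psmb6 and Psmb7 the replicates of both knockouts lie apart.

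To set the immunoproteasome subunits against the subunits they replace, the log2 ratio of each pair was averaged over the 3 pairs. It was 0.92 and 0.66 in RARα-KO+RA, 0.98 and 0.49 in RARα-KO, 0.61 and 0.44 in BATF-KO+RA, 0.62 and 0.35 in BATF-KO, 0.56 and 0.67 in WT+RA, and 0.87 and 0.59 in WT libraries. The 3 pairs differed in size, since Psmb8 exceeded Psmb5 by 3.53-fold to 5.28-fold over the libraries, while Psmb9 was between 0.721-fold and 1.19-fold of Psmb6 and Psmb10 between 0.821-fold and 1.26-fold of Psmb7. No group stood apart from its counterpart in the averaged ratio. The largest of the 7 differences was that of BATF-KO against WT, at -0.24, and libraries of both groups overlapped (exact two-sided permutation p = 0.667). Leaving out 1 library at a time gave -0.38 to -0.10 for this difference and 0.05 to 0.31 for RARα-KO+RA against WT+RA, so the order of the differences depended on single libraries. With 2 libraries against 2, the smallest p that this exact test allows is 0.333. The pair of Psmb9 and Psmb6 was lower in BATF-KO libraries (-0.20 and -0.47) than in WT libraries (0.25 and -0.06) without overlap, and likewise in BATF-KO+RA (-0.17 and -0.47) against WT+RA libraries (-0.04 and -0.15), each with an exact permutation p of 0.333.

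Loss of RARα was compared with WT in each RA state, to see whether the receptor bears on proteasome transcripts. No member was called in either comparison by limma, with 0 of 48 at an unadjusted p under 0.05 in both. Over all tested genes 3.29% were called without RA and 3.76% with RA, and 9.88% and 12.3% had an unadjusted p under 0.05. The lowest adjusted p among members was 0.727 without RA (Psmb8) and 0.641 with RA (Psmd5). For 47 of the 48 members, all but Psmc3ip, the 95% interval of the difference stayed within 2-fold in both directions, and for 40 members without RA and 30 with RA it stayed within 1.5-fold.

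Without RA, the mean in RARα-KO exceeded that in WT for 39 members, with a median log2 fold change of 0.07, against -0.00 for all genes. That direction rested on single libraries, since only 16 of 48 were higher without RARα-KO replicate 2 and 19 without WT replicate 1. Both RARα-KO libraries lay above both WT libraries for 4 members (8.33%), Psmb8, Psme1, Psme2 and Psmf1, while 15% of all genes did so. No member lay below WT without overlap, as 14.1% of all genes did. For Psmb8 the log2 fold change was 0.19 ± 0.11 (SE). For Psme1 and its neighbour Psme2, 5913 bases away, it was 0.05 ± 0.11 and 0.14 ± 0.14, and for Psmf1 0.14 ± 0.11.

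With RA, the members leaned the other way, although most moved together across libraries and so are not independent observations. Of the 48 members, 41 were lower in RARα-KO+RA than in WT+RA, with a median log2 fold change of -0.15, against -0.01 for all genes. The lower members numbered 29 to 43 when each of the 4 libraries was left out in turn. Both RARα-KO+RA libraries lay below both WT+RA libraries for 18 members (37.5%), against 17.8% of all genes, and these included 6 of 7 alpha ring genes (all but Psma6) and 3 of 4 structural beta genes (all but Psmb3). Psmb7 had the lowest value, with a log2 fold change of -0.31 ± 0.20 (adjusted p = 0.647, limma). Psmb2, a structural beta subunit, had 195 and 252 FPKM in RARα-KO+RA, against 288 and 260.04 FPKM in WT+RA libraries (-0.30 ± 0.21). By class, all 7 alpha ring, 4 structural beta and 11 non-ATPase 19S genes had lower means, as did 5 of 6 ATPases, with medians of -0.25, -0.20, -0.18 and -0.10. Among the immunoproteasome genes and the activators, 2 of 3 and 3 of 5 had higher means. Psmb8, Psmb9 and Psme4 lay above WT+RA without overlap (6.25% of members, against 20.1% of all genes), with log2 fold changes of 0.07, 0.06 and 0.15. For Psmb8 the nearest libraries were almost equal, at 801.09 FPKM in RARα-KO+RA and 800.1 FPKM in WT+RA.

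Loss of BATF was compared with WT in the same way. No member was called with or without RA by limma, and 0 of 48 had an unadjusted p under 0.05 in either comparison. Few genes were called at all, 0.0523% without RA and 0.0672% with RA, and 3.89% and 4.78% of genes had an unadjusted p under 0.05. Every member but Psmc3ip had a 95% interval within 2-fold in both comparisons, and 38 members without RA and 43 with RA had one within 1.5-fold.

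Without RA, 37 members were higher and 11 lower in BATF-KO than in WT (median 0.08), and this lean depended on the library, with 17 higher when BATF-KO replicate 2 or WT replicate 1 was left out. The constitutive catalytic genes were all higher, with log2 fold changes of 0.06 to 0.22, while the 11 lower members included Psmb9, Psmb10, Psme1, Psme2, Psme2b and Psme4. Psmb9, Psme1, Psme2b and the chaperone gene Psmg4 lay below WT without overlap (8.33% of members, 12.8% of all genes), and Psmb4 and Psmf1 lay above it (4.17% of members, 14.2% of all genes). For Psmb9 the log2 fold change was -0.20 ± 0.11 without RA and -0.09 ± 0.11 with RA. For Psme1 it was -0.13 ± 0.11 without RA and -0.19 ± 0.11 with RA. Psmb9 and Psme1 were below WT without overlap in both RA states. The share of all genes that did so in both was not counted, and neither gene passed the test in either state (adjusted p = 1, limma).

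With RA, 16 members were higher and 32 lower in BATF-KO+RA than in WT+RA (median -0.04), and 4 to 37 were higher when each library was left out in turn. Psmb9, Psme1, Psmc1 and Psmf1 lay below WT+RA without overlap (8.33% of members, 13.8% of all genes). Psme4 lay above it (2.08% of members, 17.5% of all genes), at 18.2 and 17.4 FPKM in BATF-KO+RA, against 16.5 and 16.6 FPKM in WT+RA libraries.

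**Figure D3:**
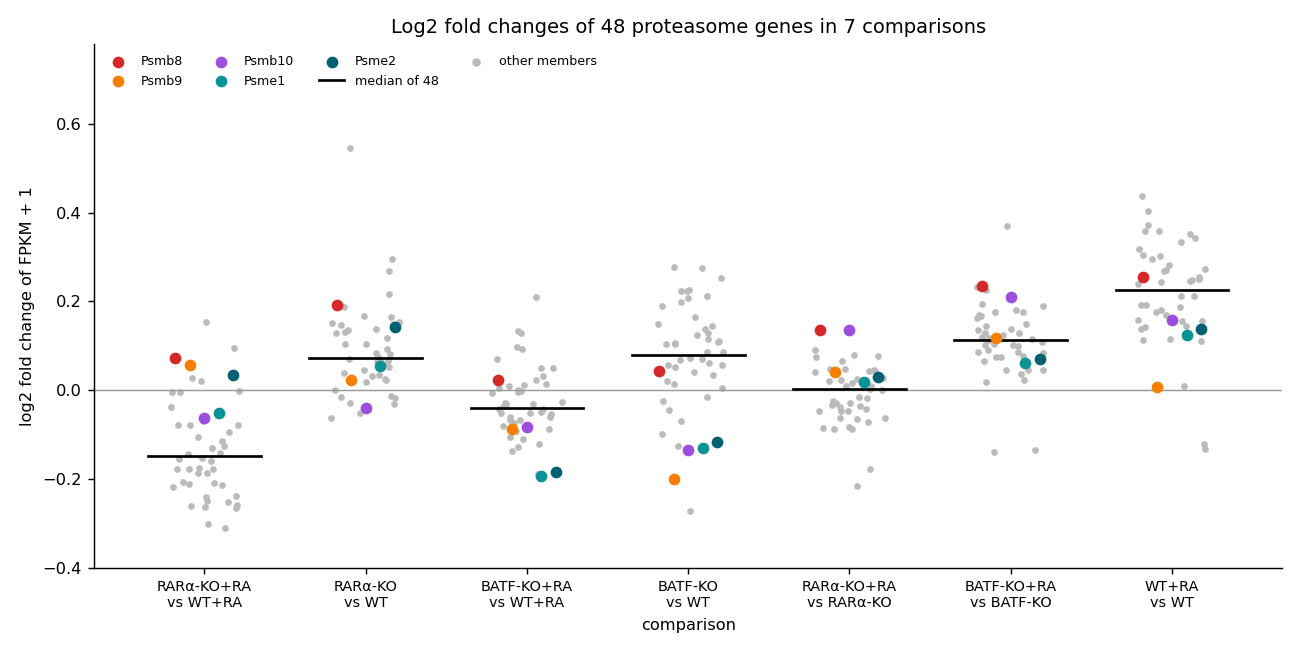
Log2 fold change of FPKM + 1 for each member in 7 comparisons, with Psmb8, Psmb9, Psmb10, Psme1 and Psme2 in colour, the other members in grey and a bar at the median of the 48. The members scatter within about ±0.5, and the medians are highest for WT+RA against WT (0.23) and lowest for RARα-KO+RA against WT+RA (-0.15).

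RA was compared with no RA in each genotype. In WT cells no member was called by limma, and 0 of 48 had an unadjusted p under 0.05, while 0.0672% of all genes were called and 4.92% had an unadjusted p under 0.05. With same-numbered libraries of a genotype as a block there were again 0 called members (limma), but 24 of 48 members had an unadjusted p under 0.05, against 22.9% of all genes. Nearly all members were on the same side, but they are not independent observations, since most moved together from library to library. Outside the immunoproteasome, the median Pearson r of a member with the mean of the others was 0.89. Of the 48 members, 46 were higher in WT+RA than in WT (median log2 fold change 0.23, against 0.00 for all genes), and Psme2b and Psme4 were lower. Both WT+RA libraries lay above both WT libraries for 28 members (58.3%), against 16.6% of all genes, and below them for Psme4 alone (2.08%), against 17.4% of all genes. Of the classes with several genes, the alpha ring and structural beta genes had the highest medians (0.28 and 0.29), followed by the constitutive catalytic genes (0.27), the 20S chaperones (0.25), the non-ATPase 19S genes (0.21), the ATPases (0.17), the immunoproteasome genes (0.16) and, at 0.12 each, the activators and the 19S chaperones. Leaving out each library in turn gave 39 to 46 higher members and medians of 0.10 (without WT replicate 1) to 0.36 (without WT replicate 2).

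The size in WT came mostly from the libraries numbered 1. Psma7, the highest alpha ring gene, had 448 and 402 FPKM in WT+RA, against 302 and 370.3 FPKM in WT libraries. Psmd7, a 19S subunit that partners Psmd14, had 156 and 141.5 FPKM in WT+RA, against 105 and 124 FPKM in WT libraries (log2 fold change 0.37 ± 0.21). Psmg3, a 20S assembly chaperone, had 32.5 and 40.4 FPKM in WT+RA, against 21.5 and 34.1 FPKM in WT libraries (0.40 ± 0.30). Over the members, the median difference was 0.36 between the WT libraries numbered 1 and 0.07 between those numbered 2. WT replicate 1 was the lowest of all 12 libraries, with a median deviation of -0.24 from the members' means.

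In BATF-KO cells no member was called by limma (0 of 48 at an unadjusted p under 0.05), against 0.157% of all genes called and 3.28% with an unadjusted p under 0.05. Again 46 of 48 were higher with RA, with a median of 0.11, but 23 were higher without BATF-KO+RA replicate 2 and 21 without BATF-KO replicate 1. Both BATF-KO+RA libraries lay above both BATF-KO libraries for 5 members (10.4%), Psmb8, Psmb9, Psmb10, Psme3 and Psmg2, against 17.6% of all genes. None lay below, as 14.1% of all genes did. The 5 included all 3 immunoproteasome genes, but the share of members was below that of all genes, and none of the 5 was called.

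In RARα-KO cells no member was called by limma (0 of 48 at an unadjusted p under 0.05), against 0.00746% of all genes called and 1.42% with an unadjusted p under 0.05. The members were split evenly, with 25 higher and 23 lower with RA and a median of 0.00. Psmb8, Psmb10 and the 19S chaperone gene Psmd10 lay above without overlap (6.25% of members, 7.9% of all genes), and Psmb1 lay below (2.08% of members, 6.87% of all genes). The 95% interval stayed within 1.5-fold for 45 members, against 21 members in the WT comparison. Each member's interval was equally wide in both comparisons, so these counts differ only through the distance of the estimates from 0. Psmb8 had a log2 fold change of 0.13 ± 0.11 in RARα-KO, 0.23 ± 0.11 in BATF-KO and 0.25 ± 0.11 in WT cells, and its 95% interval in WT reached -0.00 to 0.51.

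The RA effect was then compared between genotypes. The difference of the RA effect in RARα-KO and in WT was below 0 for 45 of 48 members, with a median of -0.23, and the difference between BATF-KO and WT was below 0 for 44, with a median of -0.10. No member passed the test in either (0 of 48, limma, 0 at an unadjusted p under 0.05), and 0% of all genes did, with 1.37% and 1.12% of genes at an unadjusted p under 0.05. With the same-numbered libraries as a block, 9 members had an unadjusted p under 0.05 in the RARα-KO difference (8.73% of all genes) and 0 in the BATF-KO difference (5.21% of all genes), and again 0 were called. These differences share the WT libraries, including the low WT replicate 1, and their standard errors had a median of 0.25, against 0.17 for a single comparison. For Psmb8 they were -0.12 (95% interval -0.48 to 0.24) and -0.02 (-0.38 to 0.34).

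Libraries with the same number in a genotype deviated together (r of 0.40 to 0.58), but some across genotypes did so too (up to 0.45). RA and no RA were also compared within 6 pairs of same-numbered libraries of a genotype, a step added after the values were seen. The sources do not state that these libraries are pairs. Members were higher with RA in 6 of 6 pairs for 11 genes, against 7.88% of all genes. These were Psmb8, Psmb10, the constitutive Psmb5 and Psmb6, the structural Psmb3 and Psmb4, Psma7, the 19S genes Psmd2, Psmd3 and Psmd7, and Psmg3. In WT replicate 1 the pair's median over members was 0.36, in both BATF-KO pairs it was 0.12, in WT replicate 2 it was 0.07, and in RARα-KO it was 0.04 (replicate 1) and -0.04 (replicate 2). The differences of Psmb8 were 0.06 and 0.21 in RARα-KO, 0.19 and 0.28 in BATF-KO, and 0.23 and 0.27 in WT (mean 0.21 ± 0.08, SD over 6 pairs). Those of Psmb10 were 0.02 and 0.25 in RARα-KO, 0.18 and 0.24 in BATF-KO, and 0.15 and 0.16 in WT. Psma7, by contrast, differed by 0.57 in WT replicate 1 and by 0.01 to 0.23 in the other pairs.

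Averaged over the 3 genotypes, RA gave 0 called members in limma without the pairing, with 2 at an unadjusted p under 0.05 (6.05% of all genes), Psmb8 (log2 fold change 0.21, adjusted p = 0.44) and Psmb10 (0.17, adjusted p = 0.801), and 0.478% of all genes called. With the pairs as a block, Psmb8 was called, at 0.21 ± 0.04 and adjusted p = 0.039 (limma), and it was the only member called, against 3.46% of all genes, with 16 members and 22.1% of all genes at an unadjusted p under 0.05. Psmb10 had an adjusted p of 0.105 in that fit. The call for Psmb8 was lost (adjusted p = 0.0669 to 0.234) when any pair but WT replicate 2 was left out, and when no filter on low values was applied (0.164). Without the pair of WT replicate 2, 21 members were called, and so were 12.8% of all genes. The RARα-KO and BATF-KO comparisons averaged over RA, also added after the values were seen, gave 0 called members in limma and 0 at an unadjusted p under 0.05, against 6.59% and 0.291% of all genes called.

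**Figure D4:**
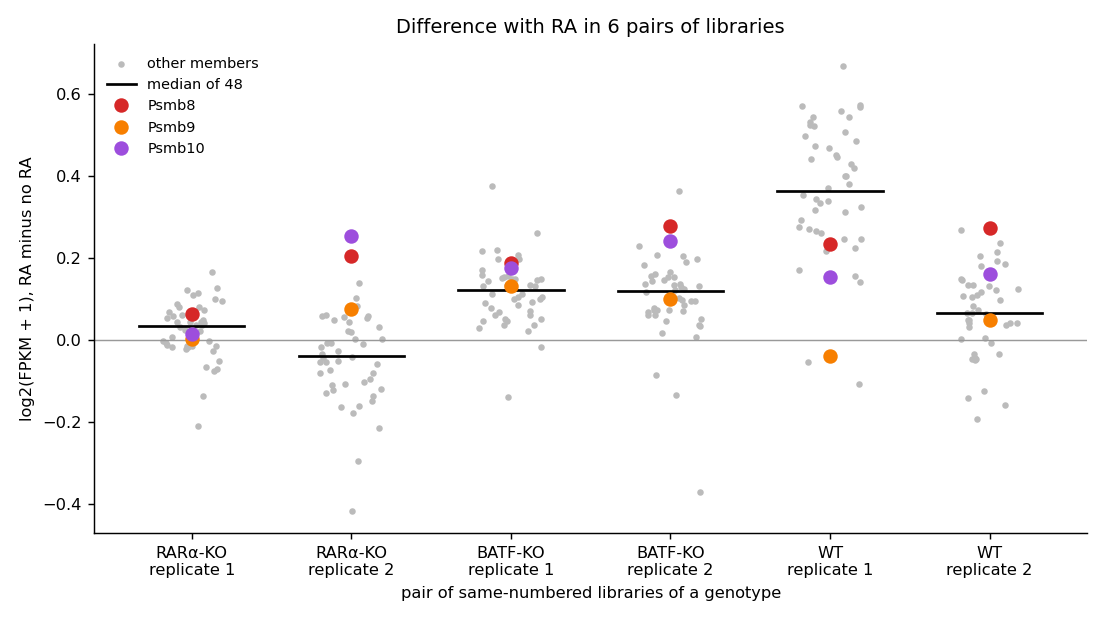
Difference in log2(FPKM + 1) between RA and no RA for each member in 6 pairs of same-numbered libraries, with Psmb8, Psmb9 and Psmb10 in colour, the other members in grey and a bar at the median of the 48. Psmb8 and Psmb10 lie above 0 in every pair, and the median is highest in WT replicate 1 (0.36).

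Most members moved together from library to library. Over the 12 libraries, 21 of the 45 members outside the immunoproteasome had a Pearson r above 0.9 with the mean of the others, and the median was 0.89, given as a description, since the genes share libraries and their scaling. Psmd12, Psma5 and Psmb2 were the closest, at 0.97, 0.97 and 0.96. Psme4 (-0.31), Psme2b (-0.23), Psme2 (0.16) and Psmd5 (0.18) did not follow the mean. Among the immunoproteasome genes r was 0.48 for Psmb8, 0.19 for Psmb10 and -0.14 for Psmb9. The members closest to Psmb9 in pattern were Psme2b, Psme2 and Psme1, with r of 0.84, 0.81 and 0.78, and Psme1 and Psme2 had r of 0.83.

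The shared movement also ran along the replicate numbers. Members were higher in replicate 2 than in replicate 1 for 41 of 48 genes in RARα-KO+RA, 42 in RARα-KO, 46 in BATF-KO+RA, 47 in BATF-KO and 39 in WT, with medians of 0.21 to 0.30 on the log2 scale, while 43.1% to 50.7% of all genes were higher in replicate 2. In WT+RA only 14 of 48 were higher in replicate 2, with a median of -0.10. Psmb8 and Psmb9 differed between replicate 2 and replicate 1 by -0.06 to 0.18 and -0.12 to 0.09. What a replicate number stands for is not given, and its part in the comparisons with RA was not tested beyond the pairs.

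**Figure D5:**
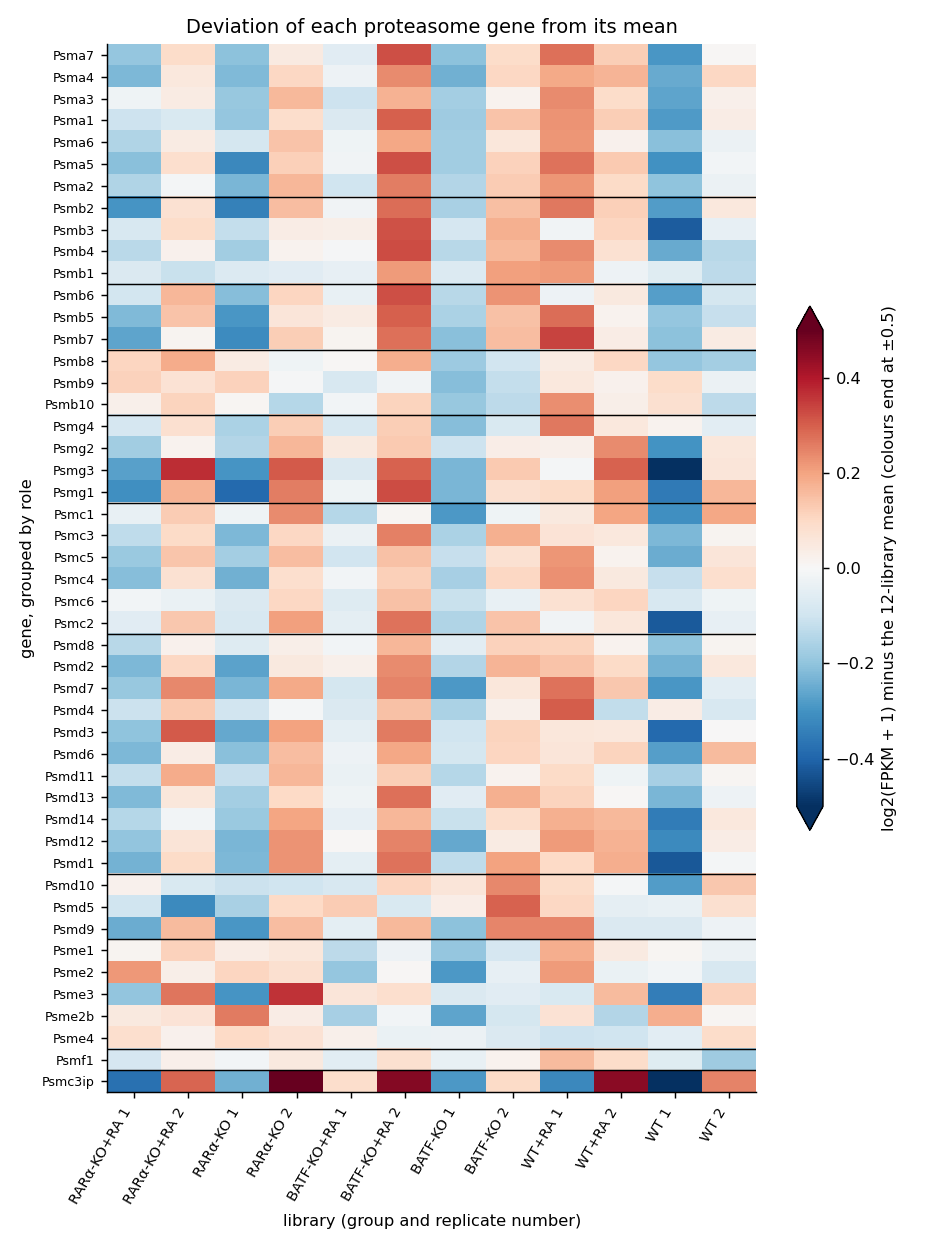
Log2(FPKM + 1) of each member minus its mean over the 12 libraries, with genes in rows, grouped by role between the lines, and libraries in columns. Replicate 1 is lower than replicate 2 for most 20S and 19S genes in 5 of 6 groups, and WT replicate 1 is the lowest column.

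Genes that work with the proteasome were looked up from a chosen list of 35 cofactors, ubiquitin genes and ubiquitin-handling factors, of which 32 were measured. None was called in any of the 9 comparisons, and 0 had an unadjusted p under 0.05 (limma). Pomp, the maturation factor of the 20S core, had 280.1 and 254 FPKM in WT+RA, against 201 and 266 FPKM in WT libraries. Vcp, the segregase that extracts ubiquitinated proteins, had 197 and 173 FPKM in WT+RA, against 143 and 157 FPKM in WT libraries (log2 fold change 0.30 ± 0.15, adjusted p = 0.917, limma). Nfe2l1, the transcription factor that drives subunit genes when proteasome activity is low, had 25.6 and 26.1 FPKM in WT+RA, against 22.2 and 28.5 FPKM in WT libraries.

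Of 16 regulators and partners of the immunoproteasome, 1 was called in 1 comparison, RARα-KO+RA against WT+RA, where 3.76% of all genes were called. Stat2, which relays interferon signals, had 101 and 164 FPKM in RARα-KO+RA, against 56.8 and 62.0 FPKM in WT+RA libraries, and rose by 1.10 ± 0.24 on the log2 scale (adjusted p = 0.0324, limma). Without RA its log2 fold change was 0.88 ± 0.24 (adjusted p = 0.0986). B cell markers were also higher in these libraries, and their part in the Stat2 value was not tested. In RARα-KO, 12 of 16 were higher than in WT without RA and 14 with RA, against 49.1% and 49% of all genes. In BATF-KO, 13 of 16 were lower than in WT in each RA state, while 51% (without RA) and 53.4% (with RA) of all genes were higher. None was called (limma). At an unadjusted p under 0.05 there was 1 without RA and 2 with RA, against 3.89% and 4.78% of all genes. Irf1, a transcription factor known to drive Psmb9 and Tap1, had 254 and 248 FPKM in BATF-KO+RA, against 346 and 331 FPKM in WT+RA libraries, and 214 and 205 FPKM in BATF-KO, against 320.3 and 279 FPKM in WT libraries. Its BATF-KO libraries lay below WT without overlap in both RA states, as for 13.8% of all genes with RA and 12.8% without RA. The log2 fold changes were -0.43 ± 0.12 and -0.51 ± 0.12 (adjusted p = 0.719 and 0.568, limma). A link of Irf1 to the Psmb9 or Tap1 values was not tested. Tap1, a subunit of the peptide transporter encoded beside Psmb9, had 206 and 208 FPKM in BATF-KO+RA, against 249 and 229 FPKM in WT+RA libraries, and 199 and 197 FPKM in BATF-KO, against 262 and 213 FPKM in WT libraries.

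The rows outside the filter were low in every library. Psma8, a testis-specific alpha subunit, reached at most 0.56 FPKM and Psmb11, the catalytic subunit of thymic epithelium, at most 0.02 FPKM. The 5 copies with -ps names reached at most 0.83 FPKM (Psma5-ps). Psme2b, on chromosome 11, is a second gene similar to Psme2 and had 90.7 to 130.8 FPKM. Reads shared by such copies could be split by the counting, so the levels of Psme2 and Psme2b are uncertain. The spans of 14 members overlap another annotated gene in RefSeq, among them Psmb5, Psmb7, Psme1 and Psme4, and how the counting treated strand is not given in the sources used here.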

How the data were processed

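Bulk RNA-seq of 12 libraries was analysed. The authors aligned paired-end reads with STAR 2.7.8a to GRCm38 and estimated levels with RSEM 1.3.3, and the deposited table holds FPKM for each gene and library, with no scaling between libraries. The labels name both a total RNA kit and poly-A enrichment. Gene positions came from RefSeq on GRCm38.

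Genes with at least 1 FPKM in at least 2 libraries (13396) were transformed as log2(FPKM + 1), which understates changes of low genes, and fitted with limma 3.58.1 in R 4.3.3 with 1 mean for each of the 6 groups and all 12 libraries in the fit, trended empirical Bayes variances and Benjamini-Hochberg adjustment over all tested genes within a comparison. Calls were made below an adjusted p of 0.05. Fits were tested on simulated data. Ratios were tested by exact permutation. Figures used Python 3.11.15 and matplotlib 3.10.9. The members, lists and tests were chosen with earlier results of these data known. Genes named were the catalytic and PA28 genes, the highest and lowest of each class, called genes, and genes singled out after their values were seen (libraries that did not overlap, largest differences, Pomp, Vcp, Nfe2l1, Irf1 and Tap1). No sequences were used here.

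Replicate numbers were checked as pairs. Deviations of same-numbered libraries correlated at 0.40 to 0.58 between RA states of a genotype, over 6 pairs, which were taken as paired in the RA comparison averaged over genotypes. Across genotypes they correlated at 0.08 to 0.45 and were not taken as paired. The ranges overlapped, since RARα-KO with WT gave 0.45, above BATF-KO (0.40) and WT (0.43) within genotype. This check thus does not cleanly separate pairs within a genotype from those across genotypes. Alternatives were other pseudocounts, filters, scalings (TPM, trimmed mean of M values, TMM, upper quartile), only the libraries compared, array weights, no trend, blocks and leaving out each library.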

Additional observations from a re-analysis of the deposited data

Results flagged for a closer look

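Psmb1, a structural beta subunit, had RA libraries on opposite sides of the untreated ones in 2 genotypes. Both RARα-KO+RA libraries (108.92 and 105.75 FPKM) lay below both RARα-KO libraries (109 and 110.15 FPKM), with a log2 fold change of -0.0297. The nearest values, 108.92 and 109 FPKM, were almost equal, and 6.87% of all genes lay below without overlap. Both WT+RA libraries (132.94 and 112.5 FPKM) lay above both WT libraries (109.68 and 104.4 FPKM), with 0.19, as did 16.6% of all genes. The difference of the RA effects was -0.22 ± 0.20 (SE) and did not pass the test (adjusted p = 1.00, limma).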

How the results depend on the processing

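The count of called members was 0 in each of the 9 comparisons under every alternative run for it (the fit on only the compared libraries was run for 7 and the block within genotype for 5), and the lowest adjusted p of a member was 0.107 (WT+RA against WT, blocked by replicate number within genotype). Leaving out each library gave medians of the members' log2 fold changes of -0.26 to -0.03 for RARα-KO+RA against WT+RA, -0.04 to 0.21 for RARα-KO against WT, -0.15 to 0.08 for BATF-KO+RA against WT+RA, -0.06 to 0.22 for BATF-KO against WT, -0.15 to 0.13 for RA in RARα-KO, -0.00 to 0.24 in BATF-KO and 0.10 to 0.36 in WT. Only in WT with RA and in RARα-KO+RA against WT+RA did the sign hold. The log2 ratio of immunoproteasome to constitutive subunits gave -0.24 to 0.25 for RARα-KO against WT and -0.19 to 0.30 for RA in RARα-KO, and the cause was not tested.

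With the replicate block, 0 members were called in each comparison, while all called genes numbered 661 against 441 for RARα-KO, 730 against 504 for RARα-KO+RA, 21 against 7 for BATF-KO, 21 against 9 for BATF-KO+RA, 32 against 9 for RA in WT, 48 against 21 in BATF-KO and 3 against 1 in RARα-KO. Within genotype the RA comparisons gave 70 (WT), 119 (BATF-KO) and 11 (RARα-KO). For Psmb8, RA averaged over genotypes gave 0.21 (adjusted p = 0.166, limma) with the replicate block. Within genotype it was called at 0.21 with 1, 0.5 or 0.1 added or a filter of 5 FPKM, 0.20 in TPM and TMM, and 0.19 with upper quartile scaling, and leaving out each pair gave 0.18 to 0.23. Precision was limited by 2 libraries a group (median standard error 0.17) and an unknown absolute depth.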
